A study of Mus musculus with 3 samples.

Results

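The genes described here are 41 interferon-stimulated genes of the mouse, chosen by name, of which 36 had a probe set that carries their symbol alone. These 36 stand among 22180 genes measured, and 35 of them rest on 1 probe set and 1, Ifi35, on a pair. Oas1a, Ifi27l2a, Gbp2 and Dtx3l were represented only by probe sets that carry several symbols and were left out, and Ifi44 was not analysed here. RNA was hybridised to 3 arrays, 1 per group, so there is no replicate error, no test was run, and each difference is one between single arrays, not between conditions. The groups were FULA 1, a mouse lung adenocarcinoma line grown in medium with fetal bovine serum, the lung of FVB mice 1 week after intraperitoneal urethane, and the lung of FVB mice given saline. FVB is an inbred strain prone to lung tumours, and urethane is a carcinogen that gives lung adenomas in mice. The sources used here do not give the age, sex and number of the mice, the time of the saline lung or the strain behind FULA 1. FULA 1 is a single cultured line, while each lung is a tissue of many cell types.

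Interferons are cytokines that cells release on sensing foreign or misplaced nucleic acid. Type I and type III interferons act through the kinases JAK1 and TYK2 to assemble ISGF3, a complex that includes STAT2 and IRF9 and binds the interferon-stimulated response element (ISRE). Interferon gamma acts through JAK1 and JAK2, and its signal reaches genes at the gamma-activated site (GAS). The genes so induced encode nucleic acid sensors, enzymes that block viral replication, and the GTPases that attack the membranes around intracellular pathogens. Many are also expressed at a basal level in lung epithelium, endothelium and leukocytes.

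Both elements can be read in the promoter sequences of several of these genes. The windows below were taken from RefSeq (build GRCm38.p6) and run 5′ to 3′ from 250 bases before to 50 bases after the gene start; 30 of the 41 genes had such a window. They are shown for the neighbouring GTPase genes Igtp and Irgm2, for Gbp7, for the transcription factor gene Irf1, for 3 IFIT genes that differ on the arrays, and for Eif2ak2. Capitals mark every match on either strand to the ISRE core, which is GAAA, any 2 bases and GAAA again, or to the GAS core TTCNNNGAA, where N is any base.
Igtp, chr11:58199306-58199605, plus strand: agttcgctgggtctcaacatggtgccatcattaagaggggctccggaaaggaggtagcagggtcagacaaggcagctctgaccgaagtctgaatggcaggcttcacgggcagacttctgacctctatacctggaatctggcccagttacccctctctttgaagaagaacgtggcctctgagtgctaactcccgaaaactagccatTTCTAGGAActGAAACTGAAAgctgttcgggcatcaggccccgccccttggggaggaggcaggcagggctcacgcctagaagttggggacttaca
Irgm2, chr11:58214727-58215026, plus strand: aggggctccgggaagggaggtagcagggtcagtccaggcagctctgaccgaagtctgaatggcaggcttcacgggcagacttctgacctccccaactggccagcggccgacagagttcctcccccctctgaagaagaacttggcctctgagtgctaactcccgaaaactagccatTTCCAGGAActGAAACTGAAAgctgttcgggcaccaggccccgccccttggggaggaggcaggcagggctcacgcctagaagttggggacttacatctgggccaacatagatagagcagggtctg
Gbp7, chr3:142530086-142530385, plus strand: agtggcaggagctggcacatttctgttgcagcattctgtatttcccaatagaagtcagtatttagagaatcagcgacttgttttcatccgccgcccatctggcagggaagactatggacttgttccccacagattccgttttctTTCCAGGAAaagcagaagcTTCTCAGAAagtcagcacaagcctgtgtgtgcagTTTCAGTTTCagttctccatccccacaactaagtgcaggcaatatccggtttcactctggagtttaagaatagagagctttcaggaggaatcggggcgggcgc
Irf1, chr11:53769764-53770063, plus strand: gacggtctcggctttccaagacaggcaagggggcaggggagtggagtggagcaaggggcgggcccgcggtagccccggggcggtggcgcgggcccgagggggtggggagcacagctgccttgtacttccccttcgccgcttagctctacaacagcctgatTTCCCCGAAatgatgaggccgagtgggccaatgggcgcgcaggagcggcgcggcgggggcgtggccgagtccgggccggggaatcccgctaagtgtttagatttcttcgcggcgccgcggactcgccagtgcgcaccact
Ifit1, chr19:34640639-34640938, plus strand: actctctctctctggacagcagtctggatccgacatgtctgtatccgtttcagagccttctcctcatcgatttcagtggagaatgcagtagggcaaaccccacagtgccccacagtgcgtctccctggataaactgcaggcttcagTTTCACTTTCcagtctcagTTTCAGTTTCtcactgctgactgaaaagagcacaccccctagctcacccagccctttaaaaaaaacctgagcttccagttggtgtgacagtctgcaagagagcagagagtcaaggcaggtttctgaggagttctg
Ifit3, chr19:34583279-34583578, plus strand: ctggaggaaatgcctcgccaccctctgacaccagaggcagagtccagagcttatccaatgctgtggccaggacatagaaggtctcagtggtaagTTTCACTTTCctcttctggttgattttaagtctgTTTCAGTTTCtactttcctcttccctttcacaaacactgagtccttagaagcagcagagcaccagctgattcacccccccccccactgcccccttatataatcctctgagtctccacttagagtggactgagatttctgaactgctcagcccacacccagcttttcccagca
Ifit2, chr19:34550444-34550743, plus strand: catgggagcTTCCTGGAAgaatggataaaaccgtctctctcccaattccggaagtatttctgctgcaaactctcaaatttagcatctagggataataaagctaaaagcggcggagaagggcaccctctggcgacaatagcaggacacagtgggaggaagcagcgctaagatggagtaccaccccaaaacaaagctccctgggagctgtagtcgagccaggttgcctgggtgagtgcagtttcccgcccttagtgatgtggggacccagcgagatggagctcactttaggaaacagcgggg
Eif2ak2, chr17:78882523-78882822, minus strand: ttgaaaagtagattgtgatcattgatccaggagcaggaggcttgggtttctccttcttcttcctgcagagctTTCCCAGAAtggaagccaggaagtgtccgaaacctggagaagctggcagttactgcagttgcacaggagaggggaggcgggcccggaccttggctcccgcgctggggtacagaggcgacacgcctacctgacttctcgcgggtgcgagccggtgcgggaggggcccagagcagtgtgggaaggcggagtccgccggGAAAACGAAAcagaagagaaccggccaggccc

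An ISRE core was present in the windows of 17 of the 30 genes (56.7%), against 3.99% of the 27025 genes in the RefSeq table, counting a gene with a match at any listed start. The GAS core was present in 10 of the 30 (33.3%), against 9.55% of all genes. Overlapping matches were counted singly, as in Isg15 with 3 ISRE matches and in Bst2, where a GAS match overlaps an ISRE match. Of the 26 ISRE matches, 21 began within the 150 bases before the gene start. Read on the matching strand, the letters GAAACTGAAA occurred in 9 of the genes, Bst2, Gbp3, Gbp7, Ifit1, Ifit3, Igtp, Irgm2, Oas1a and Stat2, and in 0.263% of all genes. The windows of Igtp and Irgm2, which lie next to each other on chromosome 11, both hold a GAS match just before an ISRE match. The longest unbroken run they share, 61 bases, lies after these matches and does not hold the ISRE core. The windows of Cmpk2, Dtx3l, Herc6, Ifi44, Irf7, Irf9, Oasl1, Oasl2 and Xaf1 held neither core, which says only that these letters are not in this window. A match is a description of the sequence and not evidence of binding.

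**Figure D1:**
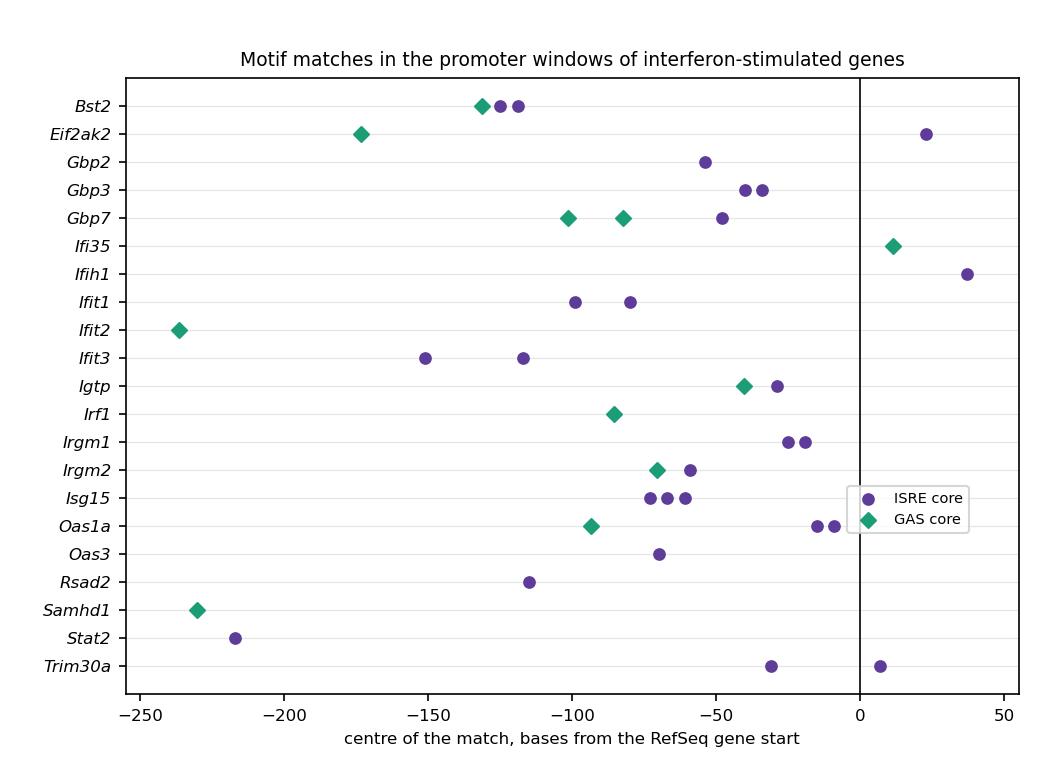
Positions of ISRE core (circles) and GAS core (diamonds) matches in the promoter windows of the 21 genes with a match; the x axis gives the centre of each match in bases from the RefSeq gene start. Of the 26 ISRE matches, 21 began within 150 bases before the start.

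The deposited columns did not share a scale: the median log2 signal over 41345 probe sets was 4.96 on FULA 1, 1.22 on the urethane lung and 0.08 on the saline lung. Levels are therefore given as the percentile rank of a gene's probe set on its own array, which no monotone rescaling changes, and as a log2 value after quantile normalization of the 3 arrays. The 95th percentile of 1105 olfactory receptor genes, mostly silent outside the nose, was taken as the background mark. This mark lay at rank 46.5 on FULA 1, 59.2 on the urethane lung and 59.6 on the saline lung, or 1.96, 2.44 and 2.46 in the same order on the normalized log2 scale. A difference whose lower value lies below the mark is given as a bound ("at least"), with the mark in place of that value, and a gene below it on both arrays is given no size. Leukocyte markers were above the mark for 3 of 6 genes on FULA 1 and for 6 of 6 on each lung. Endothelial markers were above it for 3 of 6 on FULA 1 and 6 of 6 on each lung. Of 8 lung epithelial markers, the keratin genes Krt8 and Krt18 among them, 6 were above it on FULA 1 and 8 on each lung. Many probe sets shared an exact value with another on the same array, 22.6% of all on FULA 1, 47.2% on the urethane lung and 48.4% on the saline lung. Of the 37 probe sets of the interferon-stimulated genes 7, 10 and 11 did so on these arrays, some of them far above the mark, such as Iigp1 on both lungs.

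As a group, the interferon-stimulated genes ranked lower on FULA 1 than on the lungs. Their median rank was 52.6 on FULA 1, 78.6 on the urethane lung and 83.1 on the saline lung, against medians over all genes of 54.8, 57.8 and 58.7 on the same arrays. Above the mark were 23 of the 36 on FULA 1 (63.9%, against 58.2% of all genes), 26 on the urethane lung (72.2%, against 48.9%) and 26 on the saline lung (72.2%, against 49.5%). At rank 90 or more stood 1 gene on FULA 1 (all genes, 11.1%), 4 on the urethane lung (all genes, 10.0%) and 8 on the saline lung (all genes, 10.2%). Detected on every array were 18 genes, and on both lungs but not FULA 1 were Ifit1, Rtp4, Gbp4, Gbp7, Iigp1 and Cmpk2. Oasl1, Ifit2 and Eif2ak2 were above the mark on FULA 1 alone. Oas2, Isg15, Mx1, Rsad2 and Trim30a lay below it on all 3 arrays, so for these 5 the arrays give no level. Isg15, the best known gene of the class, had ranks of 16.3 on FULA 1, 58.4 on the urethane lung and 54.7 on the saline lung.

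**Figure D2:**
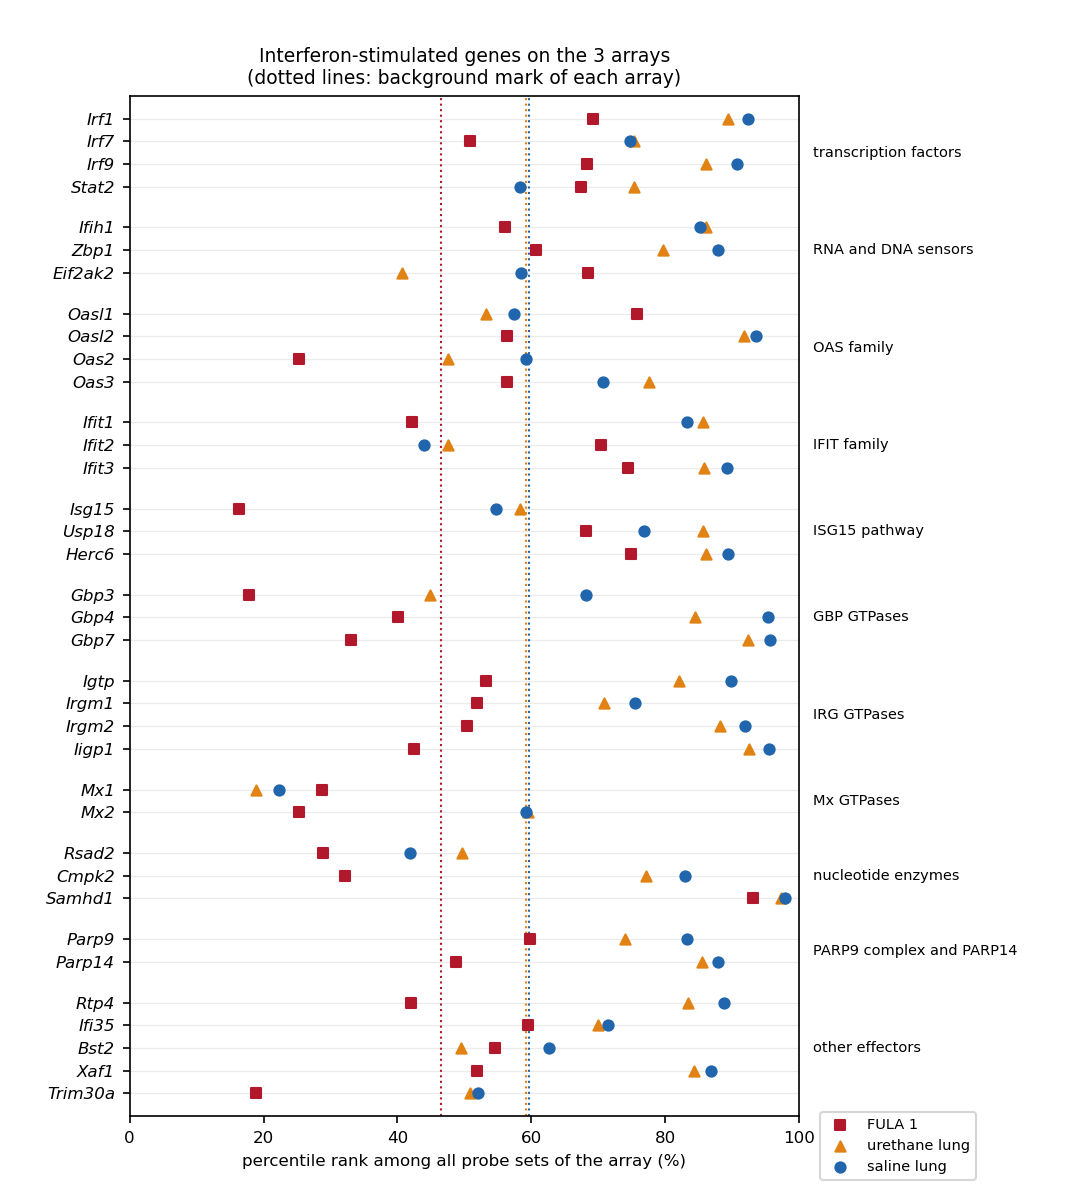
Percentile rank of each of the 36 interferon-stimulated genes among all probe sets of the FULA 1 (squares), urethane lung (triangles) and saline lung (circles) arrays, grouped by role; dotted lines give each array's background mark at 46.5, 59.2 and 59.6. Most FULA 1 points lie left of both lung points. Those of Oasl1, Ifit2 and Eif2ak2 lie to the right, as does that of Mx1, which is below the mark on every array.

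The tumour line was compared with each lung to ask which of these genes it carried at tissue level. Most were lower in FULA 1 cells, Gbp7, Iigp1 and Gbp4 by the most against the saline lung, and Oasl1, Ifit2 and Eif2ak2 were higher. Over all 36 genes the median difference was -1.53 for FULA 1 minus saline lung and -1.22 for FULA 1 minus urethane lung (log2), against -0.11 and -0.08 over all genes. The difference was negative for 31 of the 36 in each comparison, against 55.3% of all genes with the saline lung and 54.0% with the urethane lung, and positive for 5 in each, against 44.7% and 46.0%. Among genes above the mark on both arrays compared, 19 of 19 were negative with each lung, where 51.8% of all such genes were negative and 48.2% positive with the saline lung, and 50.5% and 49.5% with the urethane lung. The comparisons share the FULA 1 array and are not independent.

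Of 32 genes past the floor in FULA 1 minus saline lung, 25 were at least 2-fold lower and 2 at least 2-fold higher; the floor asks that the higher value reach the median of all gene values, 2.37. The same rule called 22.0% of 13590 genes lower and 22.6% higher. Against the urethane lung, 24 of 30 were at least 2-fold lower and 3 at least 2-fold higher, where 19.5% and 22.1% of 13264 genes were called. Under a shift of each array to one median, with no other scaling, the split was 16 lower and 4 higher of 30 against the saline lung, where 13.1% of all genes were called lower and 51.6% higher. Against the urethane lung it was 13 lower and 3 higher of 30 under that shift, where 11.5% and 52.9% of all genes were called. With the mark in place of values below it, 22 genes stayed at least 2-fold lower in each comparison (all genes, 18.2% with the saline lung and 16.3% with the urethane lung), and 0 stayed at least 2-fold higher (all genes, 17.7% and 17.3%). By rank, 28 of the 36 stood at least 10 percentile points lower on FULA 1 than on the saline lung (all genes, 32.3%) and 3 at least 10 higher (all genes, 21.9%). Against the urethane lung these counts were 29 (all genes, 30.0%) and 3 (all genes, 21.7%). The values as deposited reverse the sign for most genes, since all genes shift up by a median of 4.80 there, and the interferon-stimulated genes by 3.69, which is -1.11 relative to that shift.

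Cultured cells were set against tissue, and leukocyte, endothelial and most lung epithelial markers moved with these differences. The summed linear level of the 6 leukocyte markers was 26.2 on FULA 1, 105 on the urethane lung and 162 on the saline lung. That of the 6 endothelial markers was 24.5 on FULA 1, 415 on the urethane lung and 486 on the saline lung, and all 12 of these genes were at least 2-fold lower in FULA 1 against either lung. Ptprc, Laptm5 and Was among the leukocyte markers and Tek, Cldn5 and Vwf among the endothelial ones lay below the mark on FULA 1. The 5 neutrophil markers spanned ranks 3.92 to 44.8 on FULA 1, 44.8 to 85.6 on the urethane lung and 33.4 to 91.8 on the saline lung, and 0, 3 and 3 of them were above the mark. The 8 monocyte and macrophage markers had their highest summed level on FULA 1, 59.3, against 42.0 on the urethane lung and 49.8 on the saline lung. Their median difference was negative all the same, -0.73 from the saline lung and -0.65 from the urethane lung. Of these, Mrc1 alone was at least 2-fold higher in FULA 1 against either lung. Csf1r was at least 2-fold lower against either lung, and Ly6c2 and Marco against the saline lung. Above the mark were 2 of these 8 on FULA 1, 3 on the urethane lung and 4 on the saline lung. Of 6 plasmacytoid dendritic cell markers 2, 4 and 3 were above it on these arrays. T cell markers were above it for 0, 1 and 1 of 4 genes on these arrays, natural killer cell markers for 1, 1 and 0 of 3, and B cell markers for 0 of 2 on each. Of 8 lung epithelial markers 6 were above it on FULA 1, where the airway genes Scgb1a1 and Foxj1 were below, and 8 on each lung. Of these 8, Sftpc, Sftpb, Scgb1a1, Ager and Foxj1 were at least 2-fold lower in FULA 1 against either lung, and Epcam against the urethane lung. Only Krt8 and Krt18 were at least 2-fold higher. The median difference of the 8 was -3.81 from the saline lung and -3.83 from the urethane lung. Fewer cells of a type and less RNA per cell cannot be told apart in such samples, and the part of these cells in the interferon-stimulated differences was not tested.

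The transcription factors that carry the signal were present on FULA 1 at lower ranks. Irf1, an early target of interferon gamma that itself binds the ISRE, had normalized log2 levels of 2.95 on FULA 1, 4.80 on the urethane lung and 5.38 on the saline lung, a difference of -2.43 from the saline lung and -1.85 from the urethane lung. Irf9, the DNA-binding subunit of ISGF3, stood at 2.90 on FULA 1, 4.36 on the urethane lung and 5.05 on the saline lung, with differences of -2.15 from the saline lung and -1.46 from the urethane lung. Irf7, which drives interferon alpha genes, stood at 2.12 on FULA 1, 3.35 on the urethane lung and 3.32 on the saline lung. All 3 were above the mark on each array and lower on FULA 1. Stat2, the other ISGF3 subunit in the set, departed from them with 2.86 on FULA 1, 3.35 on the urethane lung and 2.40 on the saline lung. Its saline value lay below the mark, so FULA 1 was higher than the saline lung by at least 0.40, while it differed by -0.49 from the urethane lung, which became 0.40 under the common-median shift.

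Among the sensors the direction was not shared. Ifih1, which encodes the sensor MDA5 for long double-stranded RNA, was lower in FULA 1, with 2.30 there, 4.35 on the urethane lung and 4.25 on the saline lung. Zbp1, a sensor of Z-form nucleic acid that can trigger necroptosis, had 2.52 on FULA 1, 3.71 on the urethane lung and 4.59 on the saline lung. Eif2ak2, which encodes the kinase PKR that halts translation on binding double-stranded RNA, went the other way, with 2.91 on FULA 1, 1.81 on the urethane lung and 2.40 on the saline lung. Both lung values lay below the mark, which puts FULA 1 higher by at least 0.44 over the saline lung and 0.46 over the urethane lung. Its window, printed above, has the ISRE core after the gene start and a GAS core before it.

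Neighbouring genes of the OAS family contrasted. Oasl2, a mouse OAS-like gene, had a rank of 56.4 on FULA 1, 91.7 on the urethane lung and 93.6 on the saline lung, and differed by -3.34 from the saline lung and by -2.93 from the urethane lung. Oasl1, which lies close to Oasl2 on chromosome 5 and in the mouse restrains translation of Irf7, had a rank of 75.8 on FULA 1, 53.3 on the urethane lung and 57.4 on the saline lung. FULA 1 was higher in Oasl1 by at least 0.93 against the saline lung and 0.95 against the urethane lung. Oas3, which makes the 2-5A messenger that activates RNase L, stood at 2.32 on FULA 1, 3.52 on the urethane lung and 3.04 on the saline lung. On FULA 1, Oas3 and Oasl2 had the same deposited value, 5.38, which 21 probe sets held. Oas2 was below the mark throughout, with ranks of 25.3 on FULA 1, 47.6 on the urethane lung and 59.2 on the saline lung.

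The IFIT genes, a cluster on chromosome 19 whose proteins bind foreign RNA, split likewise. Ifit1 was below the mark on FULA 1, with a normalized log2 level of 1.86 there, 4.29 on the urethane lung and 4.02 on the saline lung, and was lower in FULA 1 by at least 2.06 against the saline lung and 2.33 against the urethane lung. Ifit3 was detected on each array, with 3.29 on FULA 1, 4.31 on the urethane lung and 4.80 on the saline lung. Ifit2, next to Ifit3 in the genome, had a rank of 70.4 on FULA 1, 47.5 on the urethane lung and 44.0 on the saline lung, and was higher in FULA 1 by at least 0.58 against the urethane lung and 0.56 against the saline lung. The windows of Ifit1 and Ifit3 hold 2 ISRE cores each, and neither listed start of Ifit2 has one. Any link between these cores and the array values was not tested. Ifit1 and Ifit3 have close copies in the mouse genome, so their signals may be mixed.

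In the ISG15 pathway, Usp18, which removes ISG15 from proteins and damps the type I receptor, stood at 2.89 on FULA 1, 4.29 on the urethane lung and 3.47 on the saline lung. Its difference from the saline lung was -0.58, but 0.48 under the common-median shift. Herc6, an ISG15 ligase in the mouse, had 3.32 on FULA 1, 4.35 on the urethane lung and 4.82 on the saline lung. Its difference from the urethane lung, -1.03, was one of 5 that changed sign in at least 1 of the 5 settings other than the deposited scale; the others were Ifit3, Mx1, Samhd1 and Stat2. Against the saline lung only Mx1 and Usp18 did so. For a gene with 1 probe set, only the common-median shift and the subtraction of a lowess curve can change the sign among these settings.

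The GBP and IRG genes, grouped after the values were seen, had lower medians than the rest of the set. All 7 measured members of the guanylate-binding (GBP) and immunity-related GTPase (IRG) families, which are classical targets of interferon gamma and act on the membranes around vacuolar pathogens, had negative differences for FULA 1 against both lungs, with medians of -3.17 from the saline lung and -2.38 from the urethane lung. The -2.38 is the difference of Gbp4, whose FULA 1 value lay below the mark, so its bound is at least 2.21. The other 29 genes had medians of -1.20 and -1.19, and 24 of them were negative in each comparison. Of all genes 55.3% were negative with the saline lung and 54.0% with the urethane lung. Gbp7 had ranks of 33.1 on FULA 1, 92.3 on the urethane lung and 95.7 on the saline lung, and was lower in FULA 1 by at least 4.31 against the saline lung and 3.40 against the urethane lung. Gbp4 had ranks of 40.1, 84.5 and 95.3 on the same arrays, lower in FULA 1 by at least 4.18 and 2.21. Gbp3, next to Gbp7 on chromosome 3, was above the mark on the saline lung only, and FULA 1 was lower by at least 0.92 there. Gbp4 belongs to a cluster of near-identical genes and its value is uncertain.

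Within the IRG family, Iigp1, an effector GTPase that coats parasite vacuoles, had ranks of 42.5 on FULA 1, 92.4 on the urethane lung and 95.5 on the saline lung. It was lower in FULA 1 by at least 4.27 against the saline lung and 3.43 against the urethane lung. The regulatory IRG genes were above the mark on each array, but on FULA 1 they lay close to it (1.96). On FULA 1 the value of Igtp was held by 35 probe sets, that of Irgm1 by 43 and that of Irgm2 by 36. Irgm2 stood at 2.10 on FULA 1, 4.64 on the urethane lung and 5.27 on the saline lung, and Igtp at 2.20, 3.91 and 4.88 on these arrays. Irgm1, which lies on the same chromosome but apart from this pair, showed a smaller gap, with 2.15 on FULA 1, 3.06 on the urethane lung and 3.36 on the saline lung. Mx1, which blocks influenza virus, was below the mark throughout, and Mx2 reached it only on the urethane lung, with a rank of 59.6 there, 25.4 on FULA 1 and 59.1 on the saline lung.

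Most of the remaining effectors were lower in FULA 1 or too low to size. Samhd1, which hydrolyses deoxynucleotides, was the gene of the set at rank 90 or more on FULA 1, with 93.1 there, 97.3 on the urethane lung and 97.9 on the saline lung, and its normalized difference from the saline lung was -1.73. Cmpk2, a mitochondrial nucleotide kinase, was lower by at least 2.05 against the saline lung and 1.53 against the urethane lung, while its neighbour Rsad2, the gene of viperin, lay below the mark. Parp14, an ADP-ribosyltransferase, stood at 2.04 on FULA 1, 4.27 on the urethane lung and 4.59 on the saline lung, and Parp9, the partner of the ubiquitin ligase DTX3L, at 2.48, 3.25 and 4.02. Rtp4 was lower by at least 2.77 against the saline lung and 2.07 against the urethane lung, and Xaf1, an antagonist of the apoptosis inhibitor XIAP, stood at 2.15 on FULA 1, 4.15 on the urethane lung and 4.44 on the saline lung. Bst2, the gene of tetherin, differed by -0.35 from the saline lung. Its urethane lung value lay below the mark. FULA 1 minus urethane lung was positive, also under the common-median shift and after a lowess curve was subtracted. No size above 0 can be given with the mark in place of the urethane lung value. Of the pair of Ifi35 probe sets, 1 was below the mark on every array, and the other differed by -1.86 from the saline lung and -1.96 from the urethane lung. Trim30a was below the mark on each array.

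**Figure D3:**
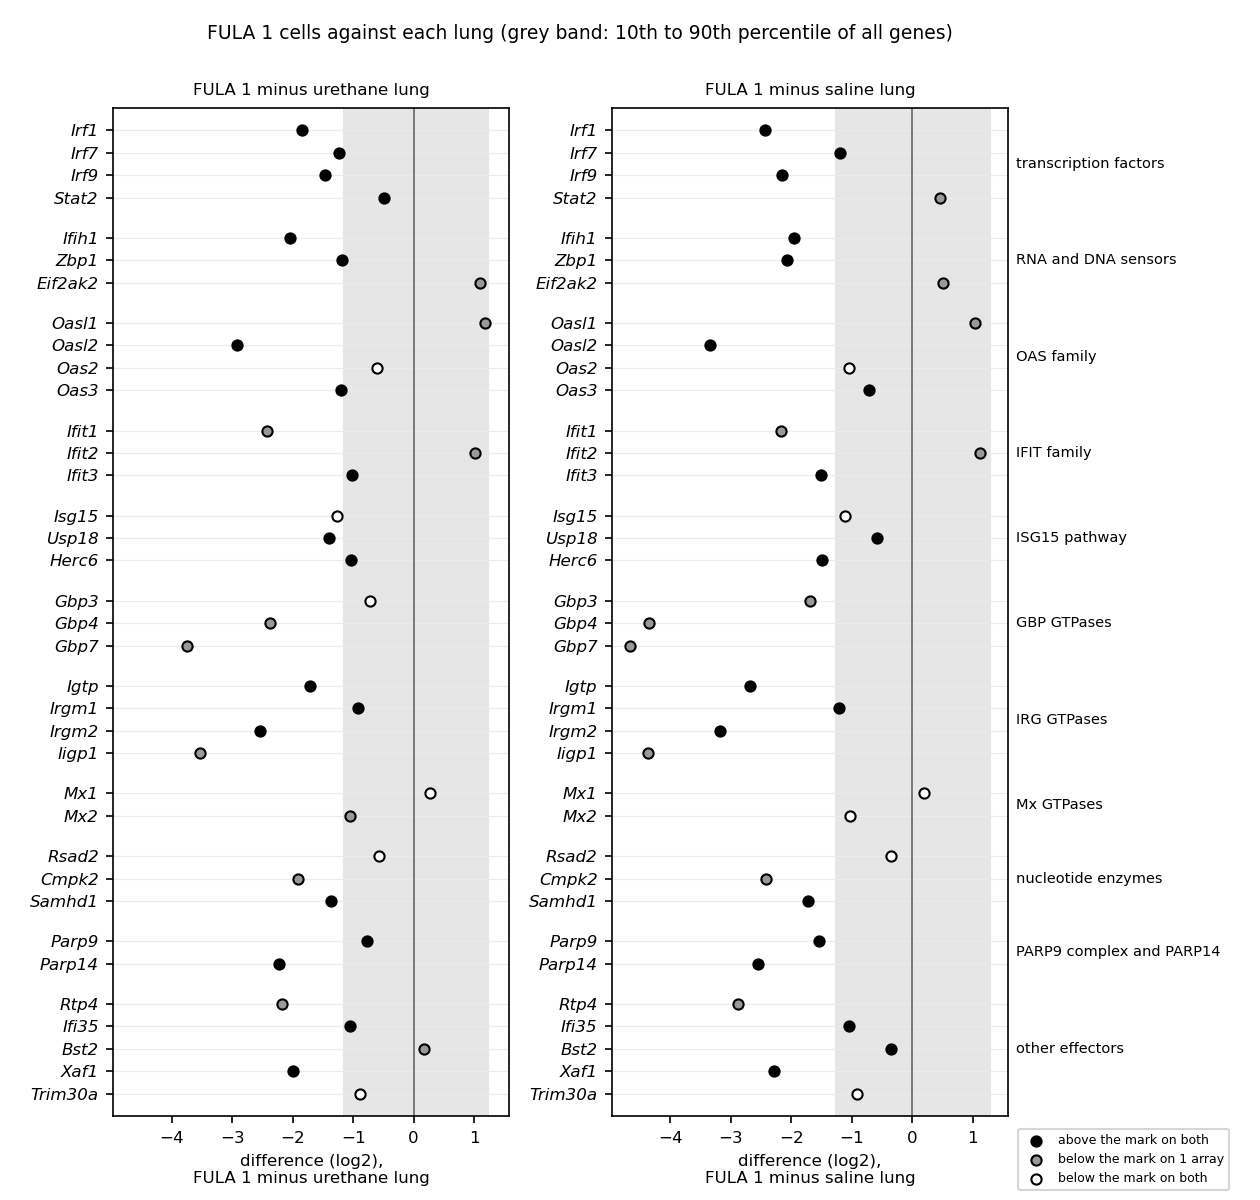
Difference of each gene (log2, quantile-normalized) for FULA 1 minus urethane lung on the left and FULA 1 minus saline lung on the right; fill shows on how many of the arrays compared the gene lay below the background mark, and the grey band spans the 10th to 90th percentile of all genes. The GBP and IRG genes lie left of 0 in both panels, with points below the mark on 1 array standing for bounds only. Oasl1, Ifit2 and Eif2ak2 lie right of 0 in both, as does Mx1, which is below the mark on every array.

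The lungs were compared to ask whether these genes differed 1 week after the carcinogen. The difference between the lungs was small for most of them, and the GBP and IRG genes, a grouping made after the values were seen, were lower in the urethane lung. The median difference of the 36 genes was -0.39 (log2, urethane minus saline), against -0.06 over all genes. Of the 36, 26 were negative and 10 positive, against 55.6% and 44.4% of all genes. Among the 24 above the mark on both lungs 19 were negative and 5 positive, and the shares of all such genes were again 55.6% and 44.4%. Only Gbp4 of 31 genes past the floor was at least 2-fold lower (all genes, 1.31%), and 0 were at least 2-fold higher (all genes, 3.27%). With the mark in place of values below it the counts stayed at 1 lower (all genes, 0.759%) and 0 higher (all genes, 2.03%). By rank, 5 stood at least 10 percentile points lower on the urethane lung (all genes, 15.4%) and 1 at least 10 higher (all genes, 12.1%), neither of which exceeds the share of all genes. Under the common-median shift 4 were at least 2-fold lower (all genes, 1.69%) and 0 higher (all genes, 1.79%). On FULA 1 quantiles 6 were lower (all genes, 7.17%) and 2 higher (all genes, 7.82%), and after a lowess curve was subtracted 1 was lower (all genes, 0.951%) and 1 higher (all genes, 4.14%). As deposited 0 were lower and 8 of 25 higher (all genes, 63.9%), since all genes shift up there by a median of 1.09.

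All 7 GBP and IRG members were lower on the urethane lung (all genes, 55.6%), with differences of -0.30 to -1.98 and a median of -0.92. They kept a negative sign under the common-median shift and after a lowess curve was subtracted. The other settings apart from the deposited scale cannot change the sign of these genes. Of the other 29 genes 19 were negative, with a median of -0.29. Gbp4 had normalized log2 levels of 4.17 on the urethane lung and 6.14 on the saline lung, a difference of -1.98, and its deposited value was the lower one on the urethane lung as well, 2.85 against 3.83. Gbp7 stood at 5.36 on the urethane lung and 6.28 on the saline lung, and Igtp at 3.91 and 4.88. Irgm2 differed by -0.64 and Irgm1 by -0.30, and Gbp3 was lower by at least 0.44. Iigp1 was deposited at the same value on both lungs, 3.93, which stood at rank 92.4 on the urethane lung and 95.5 on the saline lung. Its normalized difference of -0.84 follows from these ranks. On the urethane lung 58 probe sets held that same value.

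Of 6 further GBP genes listed, Gbp2b, Gbp5, Gbp6, Gbp8, Gbp9 and Gbp10, 5 were negative, against 55.6% of all genes. That count was made without regard to the mark. Gbp8 differed by -0.93, Gbp10 by -0.75 and Gbp9 by -0.43, with ranks of at least 93 on both lungs. Gbp2b and Gbp6 were below the mark on each array, so no size is given for them. Several of these are near-identical copies, so they do not count as separate observations. Leukocyte markers differed in part between the lungs: Rac2 was at -1.32 and the monocyte antigen gene Ly6c2 was lower by at least 1.03, but Ptprc was at 0.29 and the median of the 6 leukocyte markers was 0.02. The summed level of the leukocyte markers was 105 on the urethane lung and 162 on the saline lung, a sum in which genes at high level weigh most. Of the 6 leukocyte markers Rac2 alone was at least 2-fold lower and 0 were at least 2-fold higher. The 5 neutrophil markers had a median difference of -0.51. The endothelial markers had a median of -0.13. Their part in the GBP and IRG differences was not tested.

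Stat2, Usp18, Oas3, Ifit1, Ifih1 and Irf7 ran the other way. Stat2 stood at 3.35 on the urethane lung and 2.40 on the saline lung, where it was below the mark, so it was higher on the urethane lung by at least 0.88, and its rank was 75.3 there against 58.3. Usp18 stood at 4.29 on the urethane lung and 3.47 on the saline lung, a difference of 0.82. Oas3 was higher by 0.48, Ifit1 by 0.26, Ifih1 by 0.10 and Irf7 by 0.04. Each of these 6 also had a positive sign under the common-median shift and after a lowess curve was subtracted. None reached 2-fold after quantile normalization. Outside the GBP and IRG genes, negative values above the mark on both lungs came from Zbp1 at -0.88, Parp9 at -0.77, Rtp4 at -0.70 and Irf9 at -0.69. Further ones were Irf1 at -0.58, Cmpk2 at -0.52, Ifit3 at -0.49, Herc6 at -0.47 and Oasl2 at -0.42. Samhd1 stood at -0.36, Parp14 at -0.32, Xaf1 at -0.29 and Ifi35 at -0.004.

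**Figure D4:**
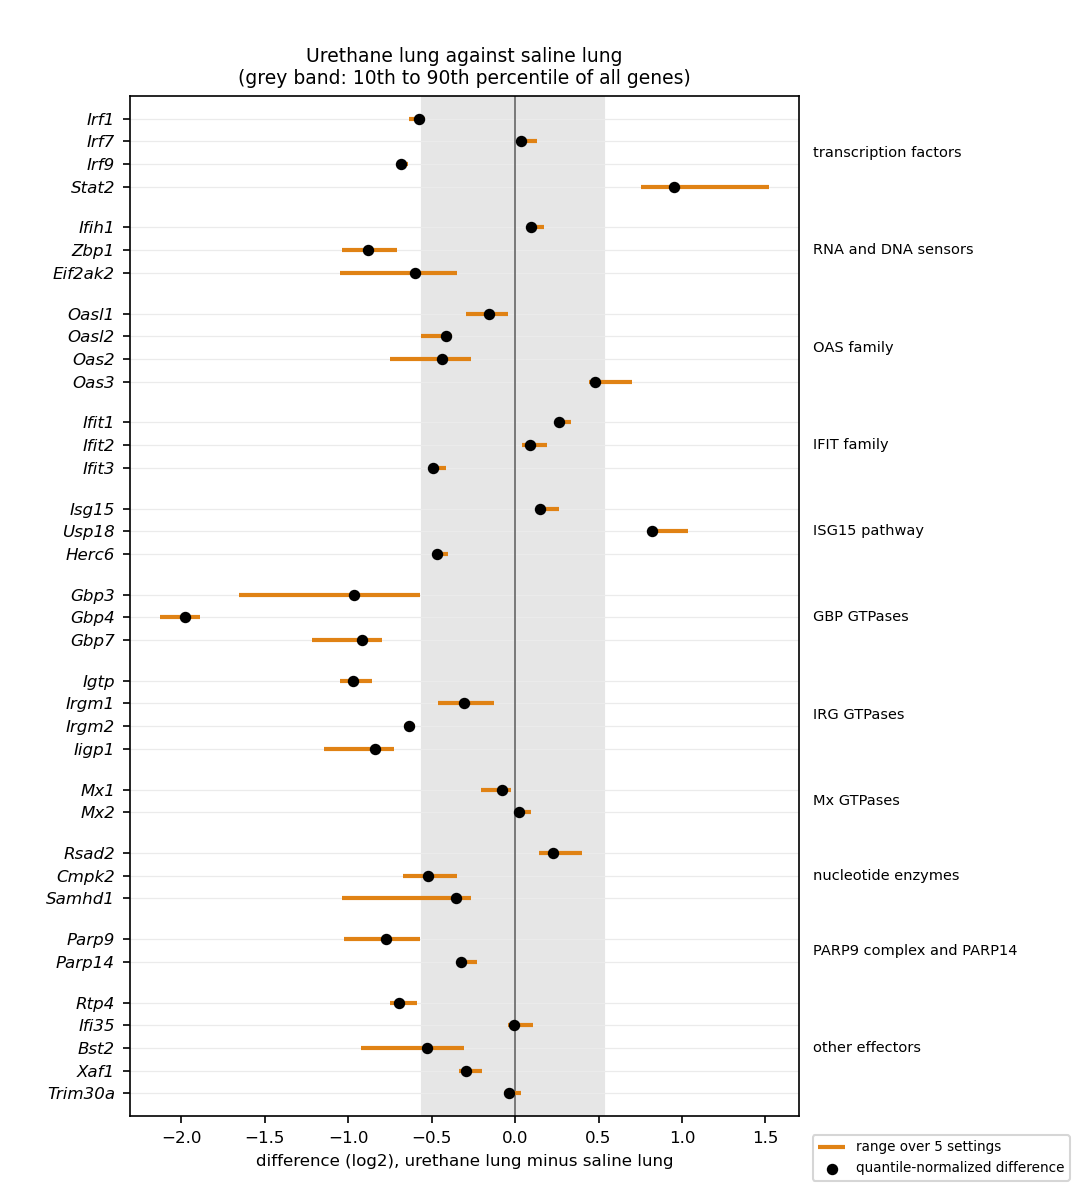
Difference of each gene (log2), urethane lung minus saline lung; points give the quantile-normalized value, bars the range over 5 settings other than the deposited scale, and the grey band the 10th to 90th percentile of all genes. Gbp4 lies at -1.98 and Stat2 at 0.95, and most points lie between -1 and 0.5.

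The rest of the interferon pathway was followed in lists of receptors and signal proteins, sensors, and other interferon-stimulated genes. All 15 measured receptor and signal genes were above the mark on FULA 1, and 14 on each lung. Against the saline lung, 1 of the 14 past the floor was at least 2-fold higher in FULA 1 (all genes, 22.6%) and 3 at least 2-fold lower (all genes, 22.0%), neither above the share of all genes. Ifngr1, the ligand-binding chain of the interferon gamma receptor, had ranks of 97.8 on FULA 1, 94.2 on the urethane lung and 94.4 on the saline lung and was higher in FULA 1 by 1.36 against the saline lung. Ifnar1, a chain of the type I receptor, was higher by 0.92, whereas the other chain, Ifnar2, differed by -0.82. The lower ones were Stat3 at -1.54, Ptpn6, a phosphatase of blood cells, at -1.43, and Il10rb, shared by the type III receptor, at -1.12. Jak2, the kinase of the gamma receptor, was higher in FULA 1 by 1.65 against the urethane lung. Between the lungs 0 of the 15 reached 2-fold, and Jak2 differed by -0.84.

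Of 19 measured sensors and inducers, 15 were past the floor, and FULA 1 exceeded the saline lung 2-fold or more in 2 (all genes, 22.6%) and fell short of it 2-fold or more in 2 (all genes, 22.0%), shares below those of all genes. Mavs, the mitochondrial adaptor of the RNA helicase sensors, was higher by 1.25 and the kinase gene Ikbke by at least 1.49. Irf8, a factor of myeloid and B cells, had ranks of 41.7 on FULA 1, 62.1 on the urethane lung and 71.8 on the saline lung, and the DNA sensor gene Tlr9 was lower by at least 0.69. In 71 other interferon-stimulated genes, 30 were at least 2-fold lower and 7 at least 2-fold higher among 56 past the floor, where 22.0% of all genes were called lower and 22.6% higher. Their median was -0.69, against -0.11 over all genes. Ifitm3, which blocks viral entry, was at -6.20 with ranks of 47.9 on FULA 1, 98.7 on the urethane lung and 98.9 on the saline lung. Gbp8 was lower by at least 5.07, Slfn5 by at least 4.15, Gbp10 by 4.18 and the proteasome activator gene Psme1 was at -2.61. The highest were Pnpt1, a mitochondrial ribonuclease, at 2.57 and the cytidine deaminase gene Apobec3, higher by at least 1.52. Also 2-fold or more higher were Ifi205, Pml, Lgals3bp, Slfn8 and Setdb2, and 2-fold or more lower Ifitm1, Ifitm2, Ifi204, Gbp5, Gbp9, Trim21, Trim34a, Sp100, Sp110, Nmi, Ly6e, Cxcl10, Slfn2, Phf11b, Phf11d, Epsti1, Ube2l6, Trafd1, Shisa5, Znfx1, Parp12, Psme2, Rnf114, Azi2 and Tnfsf10. Between the lungs 56 of the 71 were past the floor. Of these 2 were at least 2-fold higher, Slfn8 and Ifi205 (all genes, 3.27%). At least 2-fold lower was 1, Apol9a, which lay below the mark on both (all genes, 1.31%). Both counts are near the shares of all genes.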

How the data were processed

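Per the labels' protocols, Trizol and column-purified RNA was fragmented and biotinylated for the arrays. The authors deposited a log2 value for each probe set on each of the 3 arrays, made with RMA per the submitters' processing notes and with GeneSpring 12.5 per the design text; the sources used here give neither a background setting nor a genome build. The table had 0 columns beyond those of these arrays.

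Of 41345 probe sets, 23521 carried 1 gene symbol in the platform annotation, 1814 several and 16010 none. Symbols were updated by Entrez identifier through RefSeq (GRCm38.p6), which matched 23328, and probe sets of one gene were averaged. Arrays were quantile-normalized to the mean of the sorted columns (pandas 2.3.3, numpy 2.4.6), and the script was tested on simulated data. A single array stands for each group, which allows neither a test nor an error, and precision is limited by how few arrays there are. A call needed a 2-fold difference and a higher value at or above the floor.

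The genes, lists and rules were chosen with earlier results of these data known, and the role groups after the values were seen. Each of the 36 measured genes is named; genes of the wider lists were named at a 2-fold difference or as extremes, and markers by list, with some names and rank ranges left out for room. Lists were matched by symbol or synonym, and some listed genes were not analysed here. Other settings were thresholds of 1.5-fold and 4-fold, removal of the floor, a floor at the 75th percentile, the highest probe set, and other scalings (common median, FULA 1 quantiles, lowess with span 0.3 by statsmodels 0.14.6, as deposited). Promoter windows came from RefSeq.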

Additional observations from a re-analysis of the deposited data

How the results depend on the processing

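No paired analysis was possible because each group has 1 array. Values run higher then lower for counts of the 36 genes; 34 of 69 alternative values stayed within 1.5 times of the reported count or equal to the reported median at 2 decimals, 32 moved and 3 medians reversed. As deposited the medians reversed to 0.86 (urethane minus saline), 3.69 (FULA 1 minus saline) and 2.79 (FULA 1 minus urethane), below the medians of all genes on that scale of 1.09, 4.80 and 3.69; the counts became 8 and 0, 33 and 0, and 34 and 0. For urethane minus saline the median was -0.28 with a common median, -0.42 with FULA 1 quantiles and -0.35 after lowess. The lower count was 4 with a common median (all genes, 1.69%) and 0 at 4-fold (all genes, 0.00799%). The counts were 2 and 6 with FULA 1 quantiles (all genes, 7.82% and 7.17%) and 2 and 11 at 1.5-fold (all genes, 11.0% and 10.7%). After lowess 1 was higher (all genes, 4.14%). For FULA 1 minus saline the median was -1.20 with a common median, -2.03 with FULA 1 quantiles, -1.67 after lowess and -1.62 with the highest probe set. The counts were 4 and 16 with a common median (all genes, 51.6% and 13.1%) and 0 and 14 at 4-fold (all genes, 6.27% and 5.64%). With the floor at the 75th percentile 0 were higher (all genes, 29.6%). For FULA 1 minus urethane the median was -0.95 with a common median, -1.87 with FULA 1 quantiles and -1.25 with the highest probe set. The lower count was 13 with a common median (all genes, 11.5%), and the counts were 0 and 9 at 4-fold (all genes, 5.84% and 5.11%). With the floor at the 75th percentile 0 were higher (all genes, 28.8%). The thresholds and floors move counts by construction; the cause of the other shifts was not tested. Signals below the mark and ties on the lungs limit what can be sized.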

Other observations

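The interferon genes themselves were mostly too low to size. Of 18 measured ligand genes, 8 lay above the background mark on FULA 1, 5 on the urethane lung and 3 on the saline lung, and Ifnb1 and Ifng lay below it on all 3 arrays. Ifnl3, Ifnl2 and Ifna14 were above it on every array. Ifnl3, a type III interferon gene, had ranks of 71.8 on FULA 1, 96.9 on the urethane lung and 96.3 on the saline lung, and a difference of -3.39 for FULA 1 minus saline lung. Its close relative Ifnl2 had ranks of 85.1 on FULA 1, 89.5 on the urethane lung and 85.8 on the saline lung, and Ifna14 had 52.5, 85.8 and 83.9 on these arrays. Ifna1 stood at rank 77.1 on the urethane lung and 49.6 on the saline lung, higher on the urethane lung by at least 1.03. The interferon alpha genes, and Ifnl2 with Ifnl3, are near-identical copies, so these values are uncertain.

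Isg15 lay below the mark on all 3 arrays, while Usp18 and Herc6, which act on its product, were above it on each. Gbp7 was deposited at 4.13 on FULA 1 and 3.99 on the saline lung, Gbp4 at 4.45 and 3.83, and Iigp1 at 4.57 and 3.93, while the median over all genes of FULA 1 minus saline lung was 4.80 on that scale.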
